A study of Mus musculus with 48 samples.

Results

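A set of 7 long noncoding RNAs that are known to be held largely in the nucleus was followed through RNA sequencing libraries of cells sorted from mouse brain by fluorescence. They are Malat1, Neat1, Meg3, Rian, Mirg, Miat and Snhg11, 7 of the 24421 gene entries, and all 7 were found by symbol in each of the 6 deposited tables. The members were chosen by their measured levels across the groups of these same data, with no threshold, so their levels by sort, region and library series are given as a description without a test. The 48 libraries form 16 groups of 3.

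Slc22a3-cKO libraries came from mCh-sorted olfactory bulb astrocytes of Slc22a3-FF mice given Gfap-Cre, and flox control libraries from the same sort of Slc22a3-FF mice given Gfap-mCh, so both carry the floxed allele and a Gfap-driven construct. Every other group has the genotype Aldh1l1-GFP, in which the promoter of an astrocytic folate enzyme drives GFP. CNO-control and untreated libraries were GFP astrocytes of the olfactory bulb. Gq-CNO and Gq-Saline libraries covered GFP astrocytes and mCh neurons, each from olfactory bulb, cortex and hippocampus. Gq denotes a designer receptor that signals through the Gq protein, and CNO, clozapine-N-oxide, activates it. The receptor-bearing cells are not named in the labels, which give neither the animals' ages nor whether libraries of a group came from separate animals, so the p-values below measure only the spread between libraries.

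Values are given as RPM, the reads-per-million of all gene reads in a library, recovered from the deposited values. Depth ran from 228048 to 24664376 reads, and the 45S ribosomal entry Rn45s took 8.00 to 23.1% of them. The CNO-control, flox control and Slc22a3-cKO columns carry a DS number in their names (9 libraries) and the others do not (39 libraries), and this split falls entirely between groups. The labelled cell types were set against summed marker RPM. GFP libraries held 46562 to 133393 RPM of 12 astrocyte markers and 555 to 1333 RPM of 11 neuron markers. Libraries labelled mCh neurons held 1577 to 4646 RPM of neuron markers, beside 5571 to 21976 RPM of astrocyte, 5274 to 16748 RPM of microglia and 18277 to 60108 RPM of oligodendrocyte markers. Libraries labelled mCh astrocytes held 1843 to 12418 RPM of astrocyte markers beside 5327 to 14920 RPM of microglia markers. They also held 374 to 3952 RPM of neuron and 778 to 3663 RPM of oligodendrocyte markers. The flox control libraries among them had 1403 to 3952 RPM of neuron markers, within or near the range of the libraries labelled mCh neurons. In GFP astrocytes of cortex and hippocampus, 4 columns carry the number 4, which no sample title of their groups has, so they were placed by the group in the column name only. The cortical Gq-Saline GFP library numbered 4 stood apart from its group, with 3112 RPM of microglia markers against 96.3 and 100.8 RPM in the others, and results that rest on it are given with and without it. In such bulk libraries, fewer cells of a type and less RNA per cell cannot be told apart.

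Malat1 is an abundant RNA of nuclear speckles, the bodies that store splicing factors, and its 3′ end is a triple helix rather than a poly(A) tail. Neat1 is the RNA scaffold of paraspeckles, bodies that retain RNA-binding proteins such as NONO and SFPQ. Meg3, Rian and Mirg are maternally expressed transcripts of the imprinted Dlk1-Dio3 region, and they host microRNAs and small nucleolar RNAs. Miat is a neuron-rich nuclear RNA also known as Gomafu, and Snhg11 is a small nucleolar RNA host gene expressed in neurons. In brain, Meg3, Rian and Mirg are known chiefly from neurons.

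In the mm10 build with GENCODE vM21, Malat1 lies at chr19:5795690-5802672 on the minus strand and Neat1 at chr19:5824708-5845478 on the same strand, 22.0 kb apart, each as 1 exon. Meg3 lies at chr12:109541001-109571726, Rian at chr12:109603940-109661716 and Mirg at chr12:109729764-109749460, all on the plus strand, with gaps of 32.2 and 68.0 kb between neighbours. By position, 2 RefSeq microRNA hairpins lie within Meg3, 3 within Rian and 10 within Mirg. Miat lies at chr5:112213228-112229395 on the minus strand and Snhg11 at chr2:158375638-158386145 on the plus strand, where this annotation types Snhg11 as protein coding. Malat1, Meg3, Miat and Mirg each overlap 1 annotated gene on the opposite strand. Whether reads were counted by strand is not given in the sources used here, so reads of such pairs cannot be told apart.

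The promoters of Malat1, the most abundant member, and of Meg3 and Snhg11, whose levels fell in the libraries labelled Slc22a3-cKO, are shown from RefSeq (GRCm38.p6), each from 250 bases before to 50 after the annotated start. Of the 7 members, 6 had an entry. Capitals mark motif matches on either strand.
Malat1 promoter, chr19:5802623-5802922, minus strand: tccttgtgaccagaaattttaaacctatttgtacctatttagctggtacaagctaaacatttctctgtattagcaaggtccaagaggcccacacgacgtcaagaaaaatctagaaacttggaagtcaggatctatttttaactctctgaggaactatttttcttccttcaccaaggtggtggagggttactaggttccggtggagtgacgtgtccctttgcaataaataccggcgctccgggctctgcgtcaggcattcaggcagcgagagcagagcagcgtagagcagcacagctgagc
Meg3 promoter, chr12:109540746-109541045, plus strand: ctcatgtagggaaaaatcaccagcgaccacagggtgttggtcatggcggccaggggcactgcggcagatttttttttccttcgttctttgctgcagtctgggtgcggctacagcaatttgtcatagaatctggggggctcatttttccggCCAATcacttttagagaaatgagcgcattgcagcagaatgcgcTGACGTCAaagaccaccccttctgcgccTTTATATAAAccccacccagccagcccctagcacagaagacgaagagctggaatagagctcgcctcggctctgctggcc
Snhg11 promoter, chr2:158375463-158375762, plus strand: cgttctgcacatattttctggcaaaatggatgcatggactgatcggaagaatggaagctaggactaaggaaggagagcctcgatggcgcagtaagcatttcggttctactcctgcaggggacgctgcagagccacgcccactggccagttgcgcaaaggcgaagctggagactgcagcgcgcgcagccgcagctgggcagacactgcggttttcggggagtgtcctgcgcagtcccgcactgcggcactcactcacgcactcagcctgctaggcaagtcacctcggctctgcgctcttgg
The motifs searched were the TATA box (TATAAA), the CCAAT box (CCAAT), the GC box (GGGCGG), the cyclic AMP response element (TGACGTCA), the E box (CACGTG) and the AP-1 motif (TGACTCA). The Meg3 window held the cyclic AMP response element, found in 1.79% of 32851 promoter windows, a CCAAT box, found in 37.4%, and 2 overlapping TATA box matches on opposite strands, a motif found in 13.6%. The Malat1 and Snhg11 windows held none of the 6 motifs, and their GC contents were 47% and 60%, against a median of 52.7% over all windows.

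Malat1 was read in every library and was the most abundant member per length, with a median over the 48 libraries of 287 RPM per kb, against 6.16 for Snhg11, 3.89 for Meg3, 1.40 for Rian, 0.389 for Neat1, 0.153 for Miat and 0 for Mirg. In RPM, Malat1 had 27655, 16524 and 42503 in the Slc22a3-cKO libraries and 39397, 57279 and 25796 in the flox control libraries. It had 23725, 34036 and 41045 RPM in CNO-control astrocytes, against 3203, 4276 and 2545 RPM in untreated astrocytes of the same region and sort. All 9 libraries with a DS number lay above all 39 without one, the nearest being 16524 RPM and the 10250 RPM of the cortical Gq-Saline library numbered 4. Without that library the highest of the others was 4276 RPM.

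Among the Gq groups, the lowest Malat1 means were those of the cortical Gq-CNO groups, at 717 RPM in GFP astrocytes and 843 RPM in mCh neurons. Gq-CNO cortical astrocytes had 716, 892 and 544 RPM, and Gq-Saline cortical astrocytes 1380, 1272 and 10250 RPM. In mCh neurons it averaged 2356 ± 689 RPM (SD, n = 3) for Gq-CNO and 3194 ± 609 RPM for Gq-Saline in olfactory bulb, and 843 ± 216 and 1485 ± 517 RPM in cortex. Hippocampal mCh neurons averaged 2248 ± 394 RPM for Gq-CNO and 2231 ± 1312 RPM for Gq-Saline. In the order of the 16 group means, flox control astrocytes stood at the top with 40824 RPM and Gq-CNO cortical astrocytes at the bottom with 717 RPM. Of the 15 pairs of neighbours in that order, 14 overlapped in their ranges. The exception was the step between Slc22a3-cKO (28894 RPM) and cortical Gq-Saline astrocytes (4300 RPM).

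**Figure D1:**
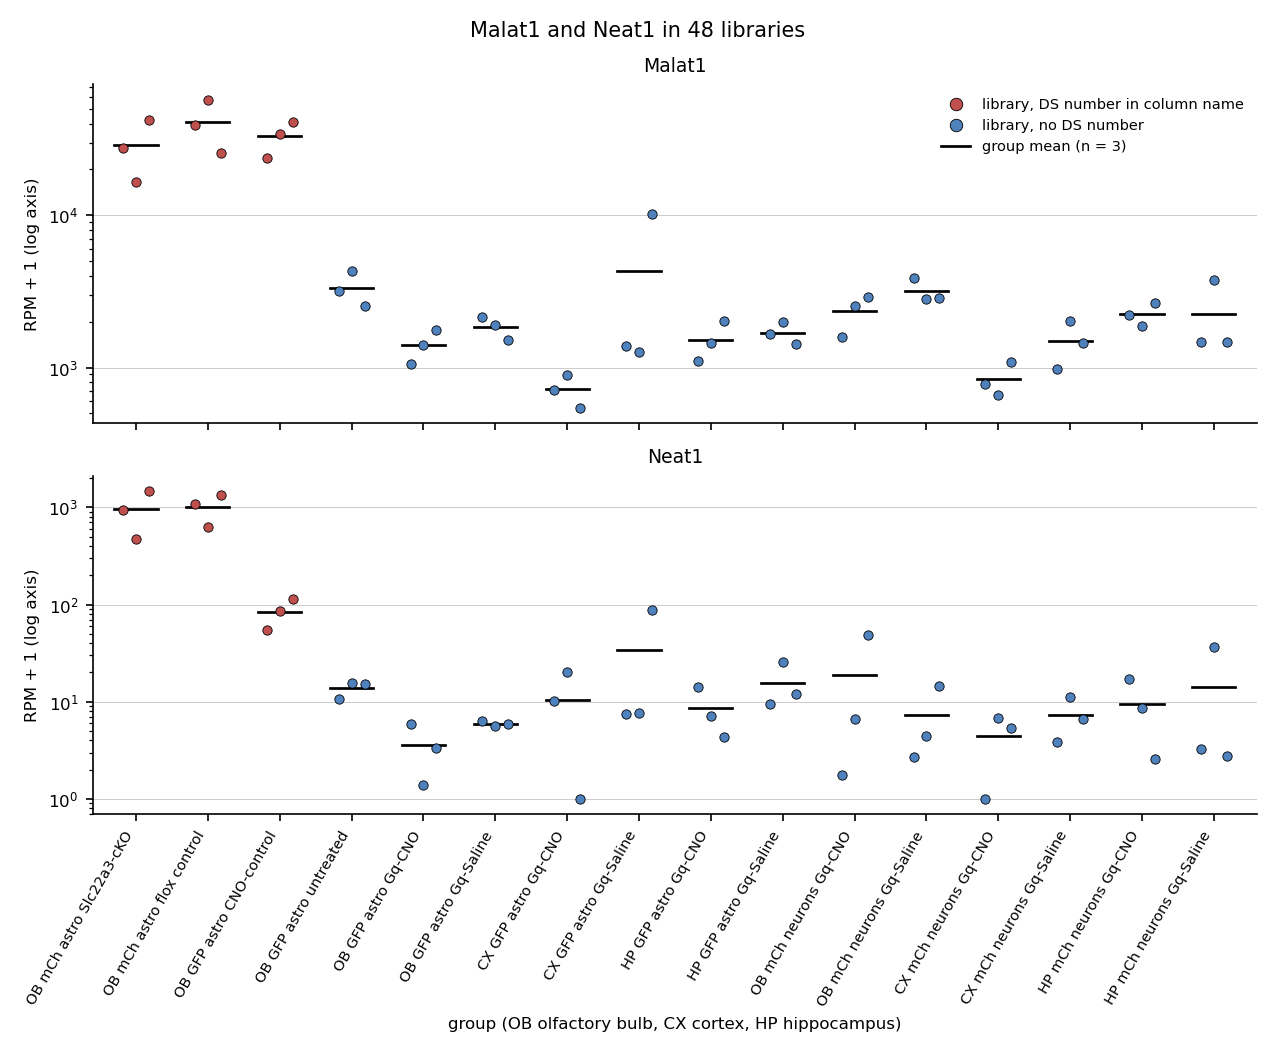
Malat1 and Neat1 in each of 48 libraries, as RPM + 1 on a log axis, by group. Red points are libraries with a DS number in the column name, blue points those without, and lines are group means (n = 3). Malat1 is at 16524 RPM or more in every red point, while Neat1 separates the mCh-sorted astrocytes, between 475 and 1468 RPM, from all GFP astrocyte libraries.

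Neat1 was scarce outside the mCh-sorted astrocytes. It had 944, 475 and 1468 RPM in the Slc22a3-cKO libraries, 1080, 628 and 1349 RPM in the flox control libraries, and 53.9, 83.9 and 112 RPM in CNO-control astrocytes. The 39 libraries without a DS number had 0 to 87.0 RPM with a median of 5.84 RPM, and 2 of them had no Neat1 read. Their highest value was again the cortical Gq-Saline library numbered 4. Malat1 and Neat1, which lie next to each other, did not keep a fixed proportion, a ratio chosen after the values were seen. Malat1 reads outnumbered Neat1 reads 29.0 to 34.8 times in Slc22a3-cKO libraries and 19.1 to 91.2 times in flox control libraries, against 367 to 440 times in CNO-control libraries. The ratio was 180 to 330 in untreated astrocytes. It ran from 46.9 to 3612 with a median of 212 over the 17 Gq GFP libraries with Neat1 reads, and from 61.4 to 2279 with a median of 259 over 17 mCh neuron libraries, so both overlapped the flox control libraries.

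Between CNO-control and untreated GFP astrocytes of the olfactory bulb, Malat1 was 9.86 times as high in mean RPM, Neat1 6.51 times, Snhg11 3.44 times, Rian 3.09 times and Meg3 1.85 times. These 5 members were higher in every CNO-control library than in any untreated library, a pattern that 25.1% of 12400 genes showed in that direction. Rian overlapped between the groups when Rn45s was left out of the total. Miat and Mirg overlapped. The 2 groups differ also in library series, in depth, with 6619479 to 8577907 reads in CNO-control and 1724893 to 2964862 reads in untreated libraries, and in summed microglia markers, 111 to 200 RPM in CNO-control and 642 to 769 RPM in untreated libraries. Oligodendrocyte markers came to 1938 to 2749 RPM in CNO-control and 1052 to 1463 RPM in untreated libraries, and astrocyte markers to 46562 to 53327 RPM in CNO-control and 58281 to 63115 RPM in untreated libraries. Rn45s took 8.90 to 11.5% of the reads in CNO-control and 15.7 to 23.0% in untreated libraries. The treatment, the series and these values cannot be told apart here. CNO-control astrocytes were likewise above Gq-CNO astrocytes of the same region, by 23.3 times for Malat1, 32.4 for Neat1, 2.10 for Snhg11, 2.05 for Rian and 1.70 for Meg3, all without overlap, as for 26.4% of 12438 genes. Meg3 and Snhg11 overlapped there under another scaling of the totals.

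Other nuclear RNAs and the genes of nuclear bodies were listed for comparison. The summed RPM of 16 nuclear speckle and splicing protein genes was 3377 to 7185 in libraries with a DS number and 1030 to 3010 in those without, so the blocks did not overlap. The 14 paraspeckle protein genes overlapped, with 1002 to 1701 RPM in DS libraries and 674 to 1406 RPM in the others. The other long noncoding RNAs were apart again, at 2272 to 12345 and 235 to 1094 RPM. This last list had group means of 2973 RPM in CNO-control and 502 RPM in untreated libraries. Most of that difference was carried by Xist, the RNA that coats the inactive X chromosome, with group means of 2318 and 169 RPM. The sex of the animals is not given here, and its part in the Xist values was not tested. Kcnq1ot1, an imprinted antisense RNA, averaged 224 RPM in CNO-control and 39.39 RPM in untreated libraries, and Clk1, a kinase of splicing factors, 179 and 33.0 RPM. Small nucleolar RNA host genes overlapped between the blocks, at 92.8 to 400 RPM with a DS number and 56.9 to 784 RPM without. Xist, Kcnq1ot1 and Clk1 were picked after their values were seen.

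**Figure D2:**
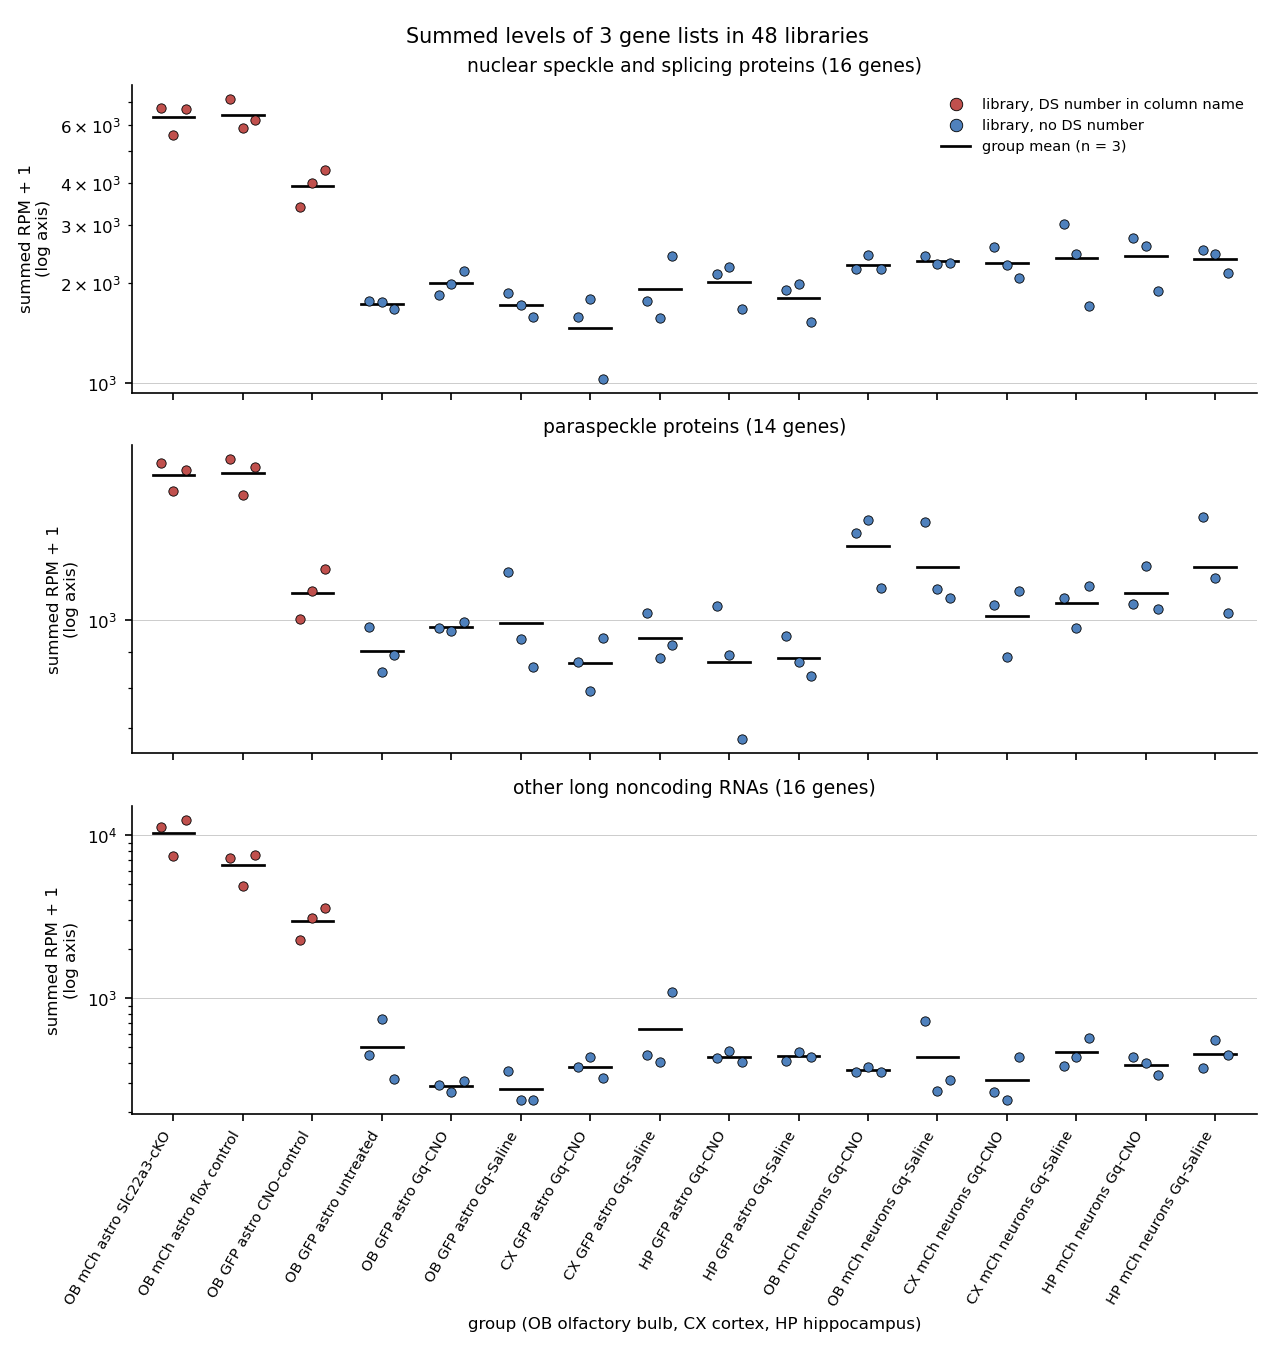
Summed RPM of gene lists for nuclear bodies and other long noncoding RNAs in 48 libraries, by group, with red points for libraries with a DS number, blue points for those without and lines for group means. The nuclear speckle and splicing proteins reach 3377 RPM or more in every red point and 3010 RPM at most in the blue points, while the paraspeckle proteins overlap.

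Meg3 had 25.4, 115 and 164 RPM in the Slc22a3-cKO libraries, against 1416, 1399 and 230.5 RPM in the flox control libraries, the group with its highest mean. In mCh neurons it had 54.8 to 229 RPM in the Gq-CNO libraries and 59.0 to 393 RPM in the Gq-Saline libraries. In GFP astrocytes it had 0 to 290 RPM over the 18 Gq libraries, with a median of 18.5 RPM. The high end came from the libraries numbered 4, with 290 RPM in cortical Gq-Saline and 204 RPM in hippocampal Gq-CNO astrocytes, and cortical Gq-CNO library 4 had no Meg3 read, which at its depth allows up to 9.23 RPM of Meg3. None of the 15 neighbouring pairs in the order of Meg3 group means was free of overlap.

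Rian gave the most even separation of the 2 sorts. In mCh neurons its group means were 143 ± 86.0 RPM (SD, n = 3) for Gq-CNO and 129 ± 18.5 RPM for Gq-Saline in cortex, 120 ± 23.4 and 135 ± 15.3 RPM in hippocampus, and 54.9 ± 11.9 and 66.4 ± 14.5 RPM in olfactory bulb. Over the 18 Gq GFP libraries Rian ranged between 3.08 and 38.1 RPM with a median of 11.5 RPM. The mCh neurons were therefore higher 4.35 times in olfactory bulb, 13.03 times in cortex and 8.10 times in hippocampus, with no overlap in any region. Over all genes, 8.81% in olfactory bulb, 7.88% in cortex and 10.2% in hippocampus were higher without overlap. Set against the summed neuron markers, Rian came to a median of 3.74% in mCh neurons and 1.38% in Gq GFP astrocytes, and the ranges of 1.497 to 7.38% and 0.422 to 5.69% overlapped. The share of its source cells in each sort was not tested.

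Mirg, the most distal host transcript of the cluster, was close to absent. It had reads in 11 of 48 libraries, and more than 3 in 5 of them, where 3 reads is also the limit that a count of 0 allows, for counting error alone. The highest were 38 reads in a flox control library and 35 reads in an olfactory bulb Gq-Saline mCh neuron library, and all 3 Slc22a3-cKO libraries had 0. Per length, Mirg therefore ran far below Meg3 and Rian, although they lie in 1 cluster. Meg3 and Rian were close in mCh neurons, with medians of 8.03 and 6.52 RPM per kb. In mCh astrocytes their medians were 10.9 and 2.04 RPM per kb. Correlations of log2(RPM + 1) over the 16 group means were 0.65 for Meg3 with Rian and 0.84 for Meg3 with Snhg11. The groups share libraries, tables and depth, so these are descriptions.

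**Figure D3:**
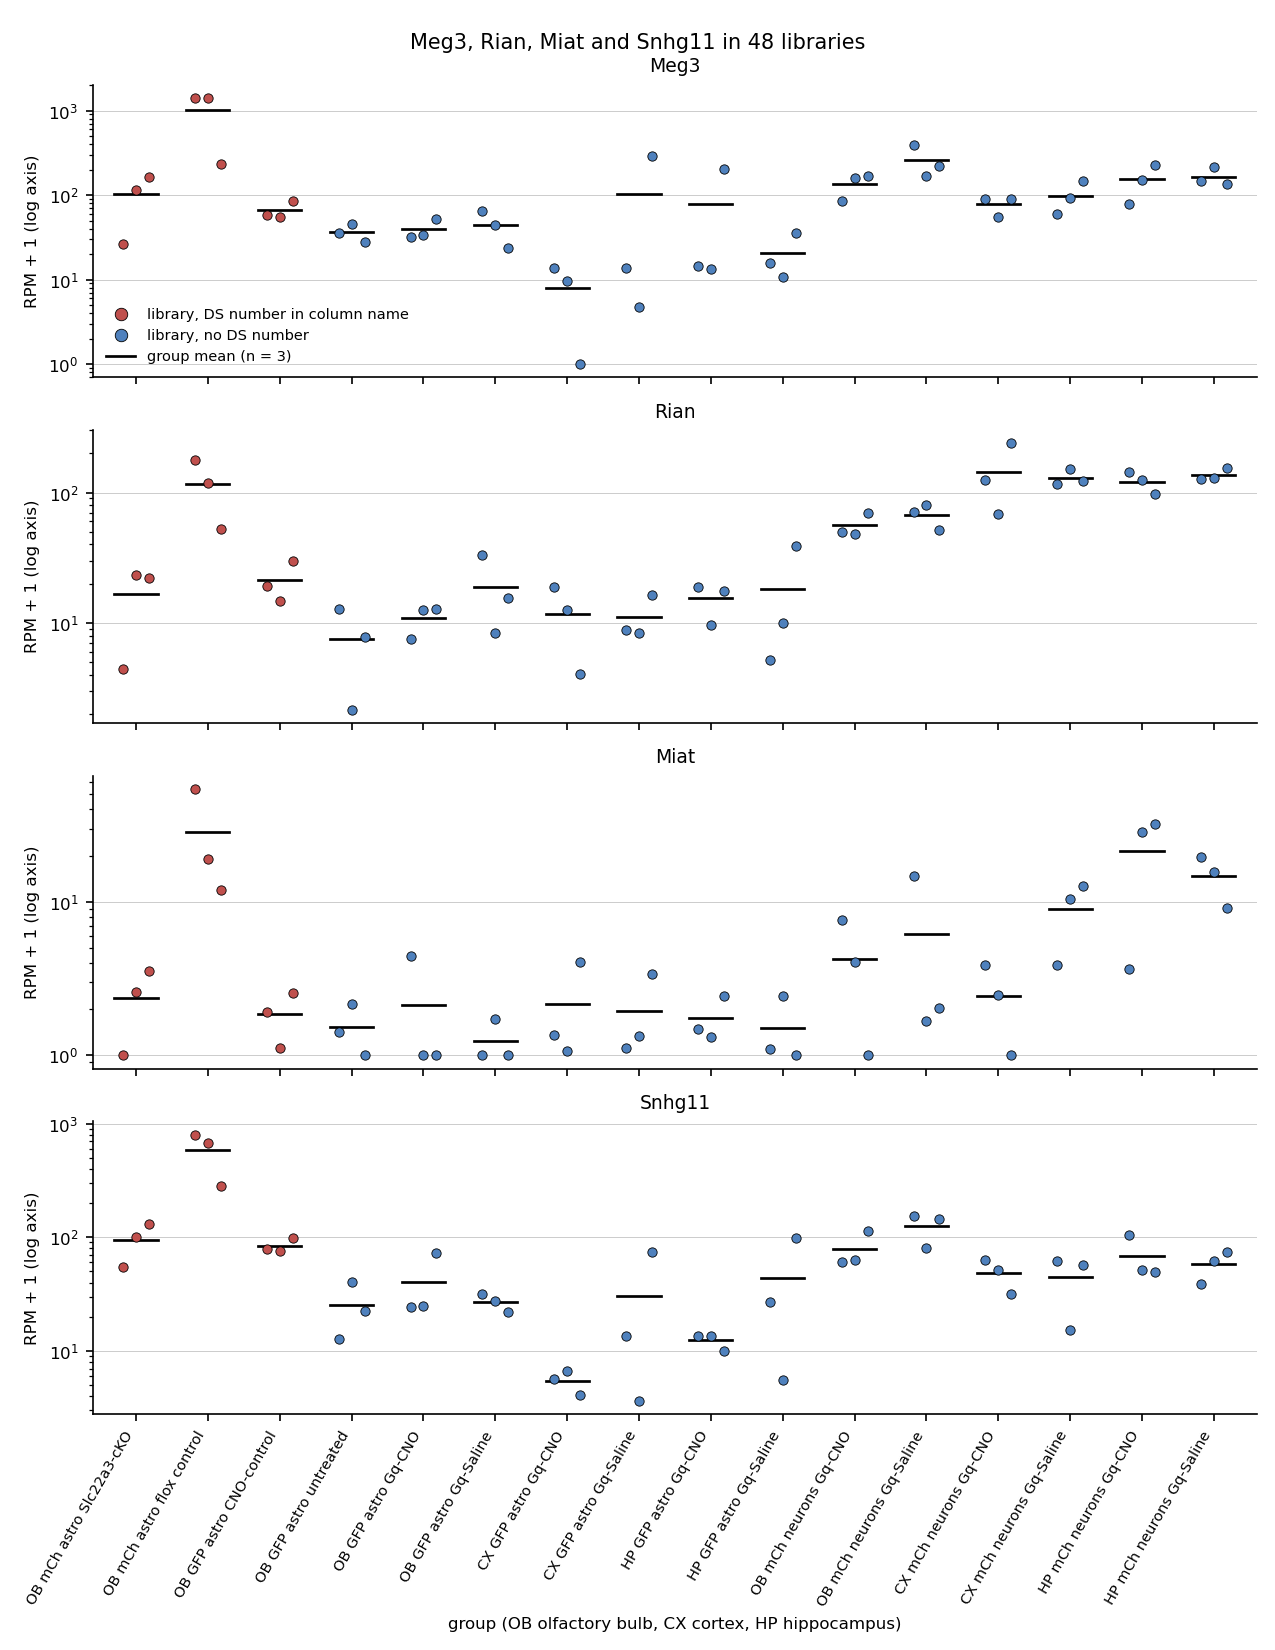
Meg3, Rian, Miat and Snhg11 in 48 libraries as RPM + 1 on log axes, by group, with red points for libraries with a DS number and lines for group means. Rian is above 47 RPM in every mCh neuron library and below 39 RPM in every GFP library, whereas Meg3 and Snhg11 peak in the flox control astrocytes.

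Miat and Snhg11, from 2 other chromosomes, were also highest in flox control astrocytes. Miat had 0, 1.57 and 2.53 RPM in the Slc22a3-cKO libraries, against 53.2, 17.9 and 10.997 RPM in the flox control libraries. In hippocampus, Miat had 2.66, 27.6 and 31.0 RPM in Gq-CNO and 18.6, 14.6 and 8.08 RPM in Gq-Saline mCh neurons, 27.31 times the mean of the GFP astrocytes there and without overlap. The sorts overlapped for Miat in olfactory bulb, with 0 to 13.7 RPM in mCh neurons and 0 to 3.41 RPM in Gq GFP astrocytes. They overlapped in cortex too, with 0 to 11.7 RPM and 0.0611 to 3.08 RPM. Snhg11 had 54.2, 98.5 and 129 RPM in the Slc22a3-cKO libraries, against 795, 678 and 281 RPM in the flox control libraries. It was 2.31 to 3.09 times as high in mean RPM in mCh neurons as in Gq GFP astrocytes of the same region, with overlap in all 3 regions. The overlap in cortex and hippocampus rested on 1 astrocyte library in each, picked after the values were seen. The shares of all genes without overlap given above cover all libraries, and none is given for such removals. Without the cortical Gq-Saline library numbered 4, Snhg11 was 7.99 times as high in cortical mCh neurons, at 14.2 RPM or more, against 12.4 RPM at most in the astrocytes. Without the hippocampal Gq-Saline library numbered 4 it was 4.83 times as high there. The values were 37.6 RPM or more in mCh neurons and 25.9 RPM at most in astrocytes.

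Meg3 was apart between the sorts in olfactory bulb, at 4.84 times. It overlapped in cortex, where mCh neurons averaged 87.5 RPM and GFP astrocytes 54.6 RPM (1.60 times), and in hippocampus, with 158 RPM in mCh neurons and 48.1 RPM in GFP astrocytes (3.29 times). Here too 1 library in each region made the overlap, picked after the values were seen. Without the cortical Gq-Saline library numbered 4 the astrocytes averaged 7.54 RPM and reached 12.8 RPM, below the 54.8 RPM of the lowest mCh neuron library. Without the hippocampal Gq-CNO library numbered 4 Meg3 was 9.36 times as high in mCh neurons, with 76.5 RPM or more against 34.3 RPM at most in astrocytes. Malat1 overlapped in all 3 regions, at 1.70 times in olfactory bulb and 1.39 times in hippocampus. In cortex it averaged 1164 RPM in mCh neurons and 2509 RPM in GFP astrocytes, and without the cortical Gq-Saline library numbered 4 the astrocytes averaged 961 RPM, which turns the direction.

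Between flox control mCh astrocytes and CNO-control GFP astrocytes, both with a DS number and both from olfactory bulb, Malat1 overlapped at 1.24 times. Neat1 was 12.2 times as high in the flox control libraries, Meg3 15.56, Miat 32.0, Rian 5.66 and Snhg11 7.03 times, each without overlap. Mirg had 19, 38 and 1 reads in the flox control libraries and 0 in each CNO-control library. In that direction 29.1% of 13550 genes did not overlap. The sort, the genotype and the marker content differ between these groups and cannot be told apart.

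The genes whose group means were most like a member's differed between members. They were taken from the 3 highest Pearson correlations of log2(RPM + 1) over the 16 groups among 6141 genes that reach 50 RPM in a group. Malat1 was like Pnisr, a splicing-related gene (0.97), and Ttc14 (0.97), and over the 13 groups without a DS number these were 0.84 and 0.73. Neat1 was most like the RNA helicase Ddx3x (0.96), Atp8a1 (0.94) and the immediate early gene Jun (0.93), which came to 0.63, 0.66 and 0.45 over the 13 groups. Its correlation with Malat1 was 0.90 over 16 and 0.58 over 13 groups.

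The other members kept their values better over the 13 groups. Meg3 was like Elovl7 (0.88 over 16 groups and 0.93 over 13) and the calcium channel subunit Cacnb4 (0.88 and 0.87). Miat was most like Nsf, an ATPase of vesicle fusion (0.92 and 0.92), and the calcium channel subunits Cacna1b (0.87 and 0.90) and Cacna2d1 (0.86 and 0.83). Rian was most like Dpy19l1 (0.97 and 0.98), the synaptic dynamin Dnm1 (0.96 and 0.95) and Golga4 (0.95 and 0.98). Snhg11 was most like the splicing regulator Sfswap (0.90 and 0.90), the glutamine transporter Slc38a1 (0.90 and 0.88) and Raph1 (0.90 and 0.87). Mirg, with few reads, was most like Kctd20 (0.82 and 0.85), Zwint (0.73 and 0.68) and Spats2 (0.71 and 0.71).

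The 6 comparisons of Gq-CNO with Gq-Saline ask whether the receptor's ligand changed these RNAs. Malat1, Neat1, Meg3, Rian and Snhg11 passed the filter on low values in all 6, Miat in hippocampal mCh neurons only, and Mirg in none. None of 31 member tests passed limma's test at a Benjamini-Hochberg adjusted p of 0.05 over all genes, and the lowest adjusted p was 0.900. The differences on the log2(value + 1) scale were below 0 in 22 of the 31 tests, and Malat1 was below 0 in 5 of 6 comparisons. Over all genes tested, 47.0 to 52.2% were above 0 in these comparisons. Members of a comparison share its libraries, so their signs are not independent. An unadjusted p under 0.05 was reached by 5 of the tests. The shares of genes called that are given below are at the adjusted p. Counts of members at an unadjusted p are therefore set against no share of all genes and are not read as an excess. edgeR and DESeq2 also called 0 members in each of the 6 comparisons. Values with their SE are given here as measured and not as changes.

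In astrocytes, Malat1 differed by -0.39 ± 0.14 (SE) in olfactory bulb (limma, unadjusted p = 0.0106), where Gq-CNO libraries had 1059, 1411 and 1766 RPM and Gq-Saline libraries 2140, 1890 and 1504 RPM, with overlap. Of 5 members tested there, 0 were called, against 0.00847% of 11810 genes, and 1 had an unadjusted p under 0.05. In cortex Malat1 differed by -1.86 ± 0.68 (unadjusted p = 0.0198), with every Gq-CNO library below every Gq-Saline library, as for 4.43% of all genes in that direction. Without both libraries numbered 4, Malat1 differed by -0.72 ± 0.16. Beside these values, 6 of 6 oligodendrocyte markers tested were lower in cortical Gq-CNO astrocytes with a median of -0.74, 7 of 10 microglia markers were lower with a median of -0.62, and 10 of 12 astrocyte markers were higher with a median of 0.16, with 0 called in each list. The part of these markers in the values was not tested. Meg3 had -3.07 ± 1.93 and Neat1 -2.20 ± 1.81 with all libraries, and without both libraries numbered 4 they had 0.56 ± 0.85 and 1.00 ± 0.79, so the sign of both rests on these libraries. The cortical count was 0 of 5 members, against 0% of 9978 genes called, with 1 member at an unadjusted p under 0.05. In hippocampus 0 of 5 members were called, against 0% of 11519 genes, with 0 at an unadjusted p under 0.05, and Malat1 had -0.19 ± 0.26.

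In mCh neurons, Malat1 and Meg3 had the lowest p-values. In cortex Malat1 had 784, 662 and 1083 RPM in Gq-CNO libraries and 982, 2015 and 1457 RPM in Gq-Saline libraries, a difference of -0.85 ± 0.28 (limma, unadjusted p = 0.00463) with overlap. In olfactory bulb Meg3 had 83.7, 158 and 165 RPM in Gq-CNO libraries, against 393, 167 and 218 RPM in Gq-Saline libraries. Its difference was -0.93 ± 0.35 (limma, unadjusted p = 0.0137), and Malat1 had -0.50 ± 0.24 (limma, unadjusted p = 0.04997). Beside these, 10 of 11 neuron markers were lower in olfactory bulb with a median of -0.58 and 0 called, and 11 of 12 astrocyte markers were higher with a median of 0.48 and 0 called. The part of these markers in the values was not tested. Counts were 0 of 5 members in olfactory bulb, against 0% of 10492 genes, 0 of 5 in cortex, against 0% of 9392 genes, and 0 of 6 in hippocampus, against 0% of 9808 genes, with 2, 1 and 0 members at an unadjusted p under 0.05.

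**Figure D4:**
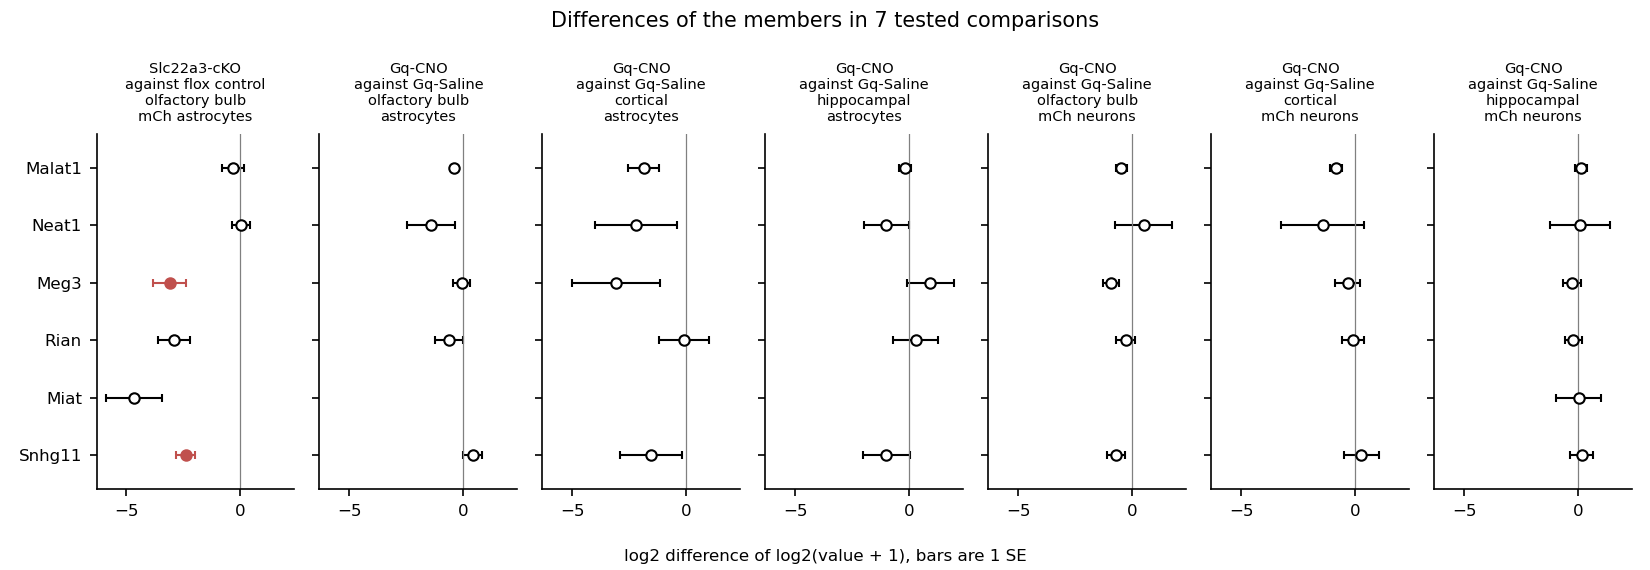
Log2 differences of 6 members in 7 comparisons, with bars of 1 SE; the filled red points passed an adjusted p of 0.05 in limma. In the 6 Gq-CNO comparisons no point is red, and the longest bars are those of Meg3 and Neat1 in cortical astrocytes and Neat1 in cortical mCh neurons, while Snhg11 and Meg3 are red in the comparison of the libraries labelled Slc22a3-cKO with flox control libraries.

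Whether the Gq-CNO differences differed between regions was tested as an interaction. Of 36 member tests, 0 were called by limma, against 0% of 12921 genes in astrocytes and 0% of 12358 genes in mCh neurons, and the lowest adjusted p was 0.794. edgeR called 0 members. An unadjusted p under 0.05 was reached by 2 tests, both for Malat1 between cortex and hippocampus. The cortical minus hippocampal difference was -1.70 ± 0.71 in astrocytes (limma, unadjusted p = 0.0257) and -0.96 ± 0.40 in mCh neurons (limma, unadjusted p = 0.0199). The astrocyte value includes the cortical Gq-Saline library with 10250 RPM of Malat1, against 1380 and 1272 RPM in the others of its group. With single libraries left out in turn, the difference ran from -2.24 to -0.66 in astrocytes and from -1.39 to -0.70 in mCh neurons. The size of the astrocyte difference therefore depended on which libraries were kept, while its sign did not.

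The lists of nuclear genes held no gene that limma called between Gq-CNO and Gq-Saline. Nuclear speckle and splicing proteins had medians of 0.22, -0.23 and 0.04 in astrocytes of olfactory bulb, cortex and hippocampus and -0.23, -0.25 and -0.07 in mCh neurons in the same order of regions. The median of all genes was between -0.06 and 0.05. In olfactory bulb astrocytes 11 of 16 of these genes were higher, and the lowest p-values were for the splicing factors Srsf5 (0.51, limma, unadjusted p = 0.00525) and Srsf2 (0.59, limma, unadjusted p = 0.0313), the speckle scaffold Srrm2 (0.37, limma, unadjusted p = 0.0343) and Clk1 (0.90, limma, unadjusted p = 0.0405). Paraspeckle proteins had medians of 0.01 in olfactory bulb, -0.24 in cortical and 0.00 in hippocampal astrocytes.

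In the comparison of the libraries labelled Slc22a3-cKO with flox control libraries, 2 members passed the test. Snhg11 and Meg3 fell, and Rian and Miat had differences of similar or greater size that missed the threshold. Malat1 and Neat1 differed by less than their spread. Slc22a3 itself had 0, 0 and 12 reads in the libraries labelled Slc22a3-cKO and 0, 0 and 0 in flox control, so its reads say nothing on the deletion and the label is used as given. limma called 2 of 6 members, against 2.53% of 13465 genes. The members were chosen by levels that include those of these groups. Neither this count nor the count without overlap below is therefore read as an excess over all genes.

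Snhg11 differed by -2.40 ± 0.42 (SE; limma, adjusted p = 0.0141), and Meg3 by -3.11 ± 0.73 (limma, adjusted p = 0.0478). All 3 cKO libraries were below all 3 flox control libraries for each, and the flox control library with 230.5 RPM of Meg3 and 281 RPM of Snhg11 was closest to them. Rian had 3.42, 22.3 and 21.2 RPM in the cKO libraries and 176, 118 and 51.9 RPM in the flox control libraries, a difference of -2.92 ± 0.70 (limma, adjusted p = 0.0504). Miat differed by -4.68 ± 1.23 (limma, adjusted p = 0.0670), a size that depends on the pseudocount since 1 cKO library had no Miat read. These 4 members did not overlap between the groups, against 12.2% of all genes that were lower without overlap. Malat1 had -0.34 ± 0.49 (limma, adjusted p = 0.779) and Neat1 0.03 ± 0.40 (limma, adjusted p = 0.977), and both overlapped. The median of the 6 members was -2.66 and that of all genes -0.10.

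These calls depended on which libraries were kept and on the settings. Leaving out cKO library 1 or 2 or flox control library 1 or 2 in turn left 0 members called, and leaving out cKO library 3 gave 4. No member was called without the trend or with the replicate block. A pseudocount of 0.1, no filter or edgeR each gave 1 called member, and quantile scaling or DESeq2 each gave 4. No share of all genes called is given for these alternatives, so their counts are not read as an excess. Over 13 alternatives the adjusted p of Snhg11 ran from 5.54e-06 to 0.116 in limma, edgeR or DESeq2, and that of Meg3 from 5.89e-05 to 0.209, while both differences stayed below 0.

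Neuron markers moved with these members. All 10 neuron markers tested were lower in the cKO libraries, with a median of -2.48, and 2 were called, the vesicle fusion gene Snap25 (-2.75, limma, adjusted p = 0.0280) and the calcium sensor Syt1 (-1.97, limma, adjusted p = 0.0346). Their summed level was 374, 394 and 1116 RPM in the cKO libraries and 3496, 3952 and 1403 RPM in the flox control libraries, and 1 of 11 markers was at 0 in each cKO library, against 0 in each flox control library. Oligodendrocyte markers were lower for 8 of 8 with 0 called and a median of -1.74, and astrocyte markers for 11 of 12 with 2 called, the water channel Aqp4 (-2.40, limma, adjusted p = 0.00171) and the glutamate transporter Slc1a2 (-2.16, limma, adjusted p = 0.0328). Microglia markers were higher for 11 of 12 with 0 called and a median of 0.89. The part of these markers in the result was not tested.

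Set against the neuron markers, a ratio chosen after the values were seen, the members were closer between the groups. Meg3 came to 6.79, 29.2 and 14.7% of the summed neuron marker RPM in the cKO libraries and 40.5, 35.41 and 16.4% in the flox control libraries, with overlap. Snhg11 came to 14.5, 25.0 and 11.5% in the cKO libraries and 22.8, 17.2 and 20.0001% in the flox control libraries, and Rian to 0.916, 5.65 and 1.90% and to 5.03, 2.97 and 3.70%, both with overlap. Miat came to 0, 0.398 and 0.227% in the cKO libraries and 1.52, 0.453 and 0.784% in the flox control libraries, without overlap. In mCh neurons Meg3 came to 1.38 to 12.7% and Snhg11 to 0.417 to 8.34%, below every flox control library. Rian, at 1.497 to 7.38%, and Miat, at 0 to 1.17%, overlapped the flox control libraries there. The part of neuron content in these values was not tested.

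**Figure D5:**
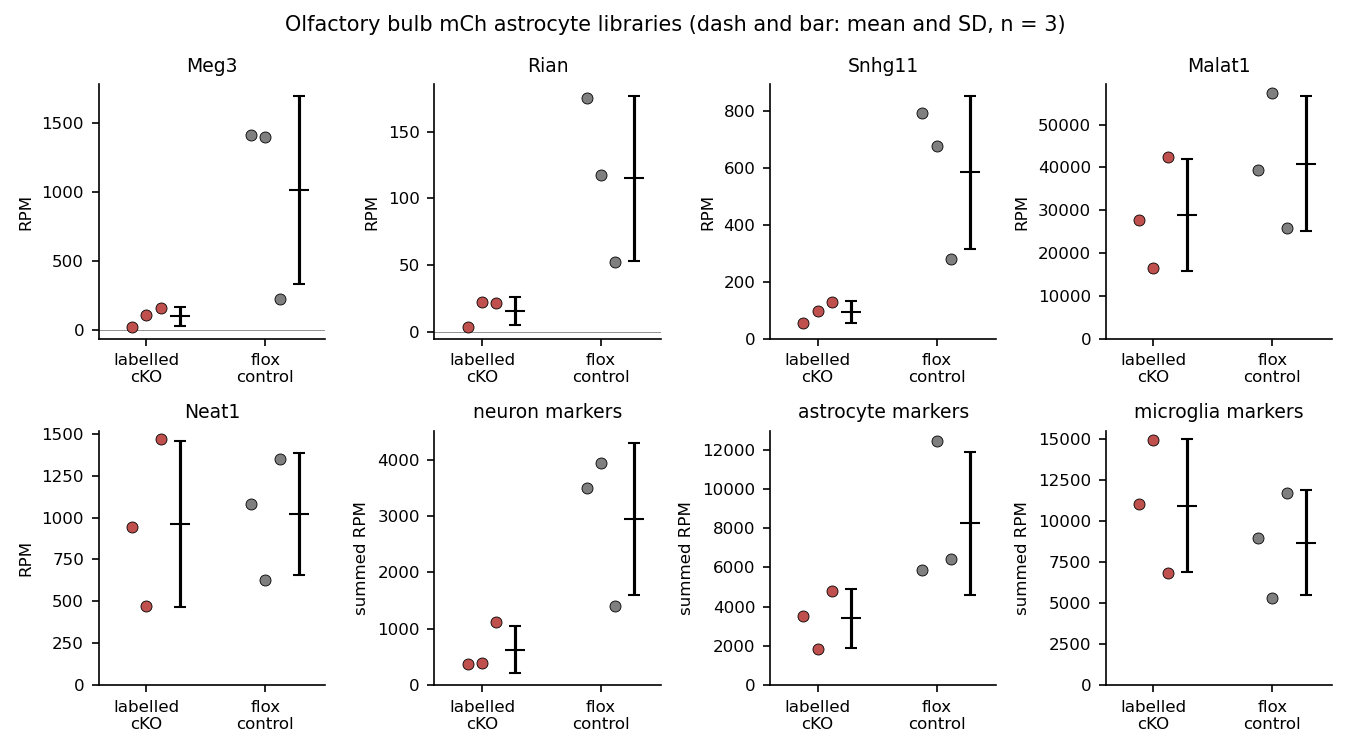
Values in the 3 libraries labelled Slc22a3-cKO and the 3 flox control libraries of olfactory bulb mCh astrocytes, with the mean and SD as dash and bar. Meg3 and Snhg11 are lower in each cKO library, and the summed neuron markers are lower there as well, while Malat1 and Neat1 overlap.

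No gene of the nuclear lists was called in this comparison. Of 14 paraspeckle protein genes 9 were higher, with a median of 0.18, and of 16 speckle and splicing genes 12 were higher, with a median of 0.17. Small nucleolar RNA host genes were higher for 6 of 8, with a median of 0.52. Other long noncoding RNAs were higher for 7 of 12, with a median of 0.25 and the lowest p-values for Pvt1 (2.82, limma, adjusted p = 0.108) and Xist (0.93, limma, adjusted p = 0.179). Of the Dlk1-Dio3 neighbours, Yy1, a transcription factor encoded beside the cluster, was the gene tested, at 0.58 (limma, adjusted p = 0.445).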

How the data were processed

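The labels' protocols name RNeasy Micro extraction, Trio RNASeq libraries (NuGEN) from 10 ng total RNA and paired-end sequencing, and they give the molecule as polyA RNA. The submitters' processing notes list FastQC 0.11.7, MultiQC 1.11, STAR 2.5.0a, DESeq2 1.30.1 and mm10. The authors deposited 6 tables of normalised signal; judged from the values, these are gene reads divided by a factor per column. Dividing each column by its smallest positive value gave whole reads for 100% of positive values (tolerance 0.05), and these gave RPM. The depth is 228048 to 24664376 reads per library.

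Tests used limma 3.58.1 (R 4.3.3) with a mean-variance trend on log2(value + 1), for genes that reach a value of 10 in 3 libraries or more, with Benjamini-Hochberg adjustment over all genes tested. Fold changes on this scale understate those of low genes. Region differences were interactions on recovered reads scaled together. Alternatives were a pseudocount of 0.1, no filter, quantile scaling, no trend, edgeR 4.0.16 and DESeq2 1.42.0 on recovered reads, leaving out libraries and a replicate block. The procedure was run on simulated counts with the same dispersion for every gene and no outlying library. That run does not show how the tests behave with libraries such as the cortical Gq-Saline GFP library numbered 4. Levels between tables are RPM, given without a test. The members, lists and tests were chosen with earlier results of these data known. Named genes were the 7 members, the 3 most alike for each, and up to 4 genes per list by unadjusted p. Some genes that this rule names are not reported here. RefSeq sequences are of GRCm38.p6.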

Additional observations from a re-analysis of the deposited data

How the results depend on the processing

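No member was called in the Gq-CNO or region comparisons under any alternative. With all libraries, 2 members were called in the comparison of Slc22a3-cKO with flox control libraries. There were 1 with a pseudocount of 0.1, 1 without the filter, 4 with quantile scaling, 0 without the trend, 1 with edgeR and 4 with DESeq2. Leaving 1 library out gave 0 to 4. The share of all genes called under each of these alternatives is not given here. Within a comparison, same-numbered libraries of the 2 groups correlated at -0.09 to 0.13, so the numbers showed no pairing there, and the replicate block left 0 called. Pairing by number between regions or sorts was not examined. The log2 differences that changed sign were these. In cortical astrocytes, without both libraries numbered 4, chosen after seeing the data, Neat1 was 1.00, Meg3 0.56 and Rian 0.91, and Rian was 0.23 with quantile scaling, 0.23 with edgeR and 0.18 with DESeq2. In hippocampal astrocytes Rian was -0.37 with edgeR and -0.33 with DESeq2, and Snhg11 was 0.18 without both libraries numbered 4. In cortical mCh neurons Rian was 0.038 with edgeR and 0.039 with DESeq2. In hippocampal mCh neurons Malat1 was -0.0055 with DESeq2, Neat1 -0.090 with quantile scaling and -0.71 with edgeR and DESeq2, and Miat -0.014 with a pseudocount of 0.1 and -0.0075 with quantile scaling. In the cKO comparison Neat1 was -0.17 with quantile scaling. With 1 library left out, differences crossed 0 for Meg3 (-0.44 to 0.25) and Snhg11 (-0.11 to 0.68) in olfactory bulb astrocytes and Rian in cortical astrocytes (-0.62 to 0.53). They did so in hippocampal astrocytes for Malat1 (-0.51 to 0.085), Meg3 (-0.51 to 1.64), Rian (-0.47 to 1.22) and Snhg11 (-2.20 to 0.12), and in olfactory bulb mCh neurons for Neat1 (-0.10 to 1.79). In cortical mCh neurons they did for Rian (-0.54 to 0.35) and Snhg11 (-0.42 to 0.62). In hippocampal mCh neurons they did for Malat1 (-0.15 to 0.54), Neat1 (-0.61 to 0.88), Meg3 (-0.65 to 0.17), Miat (-0.60 to 1.12) and Snhg11 (-0.19 to 0.41). They did for Neat1 in the cKO comparison (-0.29 to 0.42) and Malat1 in the difference between olfactory bulb and hippocampal astrocytes (-0.51 to 0.095). The cause was not tested. All 424 alternatives of the levels stayed within 1 SD on the log2(RPM + 1) scale. With 1 library left out this could not be otherwise, since its removal cannot move a group mean that far. It is therefore no sign of stability for those alternatives. Malat1 in cortical mCh neurons minus GFP astrocytes was -0.32 with all libraries and 0.26 without the Gq-Saline library numbered 4. Depth limits Mirg and Miat most, with 37 and 9 of 48 libraries at 0 reads.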
